A study of Mus musculus with 4 samples.

Results

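RANK signaling was described through 10 genes, namely the receptor Rank (Tnfrsf11a), its ligand RANKL (Tnfsf11), the decoy receptor osteoprotegerin (OPG, Tnfrsf11b), the adaptor Traf6, the NF-κB subunits Nfkb1, Nfkb2, Rela, Relb and Rel, and the NF-κB inhibitor Nfkbia. The genes were taken by name, with earlier results of these data known, and all 10 were found, each in 1 row of the 23746 gene rows. PolyA RNA had been sequenced from 4 primary mammary tumors of female mice. Tumors 26043 and 26044 had the genotype WapCre;Rank;Brca1;p53 (triple-mutant), and tumors 26048 and 26050 had the genotype WapCre;Brca1;p53 (double-mutant). All 4 tumors thus carried Cre recombinase driven by the Wap promoter together with conditional Brca1 and p53 alleles, and the genotypes differed in the conditional Rank allele. The study describes this Cre as active in luminal and basal mammary epithelial cells, so cells of a triple-mutant tumor outside the epithelium would still carry an intact Rank gene. Age and grade of the sequenced tumors are not given in the sources used here, and the labels do not say whether the tumors came from separate females. The study found high-grade tumors in double-mutant females only, so grade may differ between the genotypes compared here. The study describes the triple-mutant females as littermates of the double-mutant ones, but the sources used here do not say which of these tumors share a litter. The p-values therefore measure the spread between these tumors.

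In the mammary gland, RANKL is made by cells that carry the progesterone receptor, and it binds RANK on neighbouring epithelial cells that lack this receptor. Osteoprotegerin is secreted and holds RANKL away from RANK. Bound RANK recruits TRAF6 and other TRAF proteins, and these lead to the release of NF-κB from its inhibitors. In the canonical branch IκBα, the product of Nfkbia, is degraded and dimers of p50 (from Nfkb1) with RELA or c-REL enter the nucleus. In the non-canonical branch the kinase NIK (Map3k14) leads to the processing of p100 (from Nfkb2) to p52, which acts with RELB. RANK and RANKL are best known for the formation of osteoclasts, the bone-resorbing cells, and for alveolar growth of the mammary gland in pregnancy.

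Values are FPKM, fragment counts scaled to the length of the transcript and to all fragments mapped in a tumor, so levels of different genes can be set side by side. Genotypes were compared as log2(FPKM + 1), triple-mutant minus double-mutant, with limma and Benjamini-Hochberg adjustment over the 12752 genes that had at least 1 FPKM in at least 2 tumors. Of the members 8 passed this filter, while Tnfsf11 and Rel did not and have no test. Cufflinks gave each FPKM an interval that covers the measurement within a tumor and not the spread between tumors. The deposited tables hold no read totals, so absolute depth is unknown. For 8 members and some 3371 to 3600 genes per tumor the interval bounds were whole multiples of a step, and the most frequent ratio of these steps between tumors put relative depth at 1 (26043), 1.02 (26044), 1.04 (26048) and 1.08 (26050). A step may be a read or a fraction of one. The labelled tissue was checked with epithelial markers. The 10 luminal epithelial markers summed to 4606 and 554 FPKM in triple-mutant tumors and to 3121 and 2849 FPKM in double-mutant tumors, lowest in tumor 26044. The 8 basal markers summed to 1751 and 1315 FPKM against 70.4 and 47.6 FPKM. Macrophage markers summed to 335 to 623 FPKM in triple-mutant and 702 to 1017 FPKM in double-mutant tumors, and fibroblast markers to 211 to 241 FPKM and 472 to 933 FPKM. The 7 B-cell markers summed to at most 1.55 FPKM in any tumor.

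**Figure D1:**
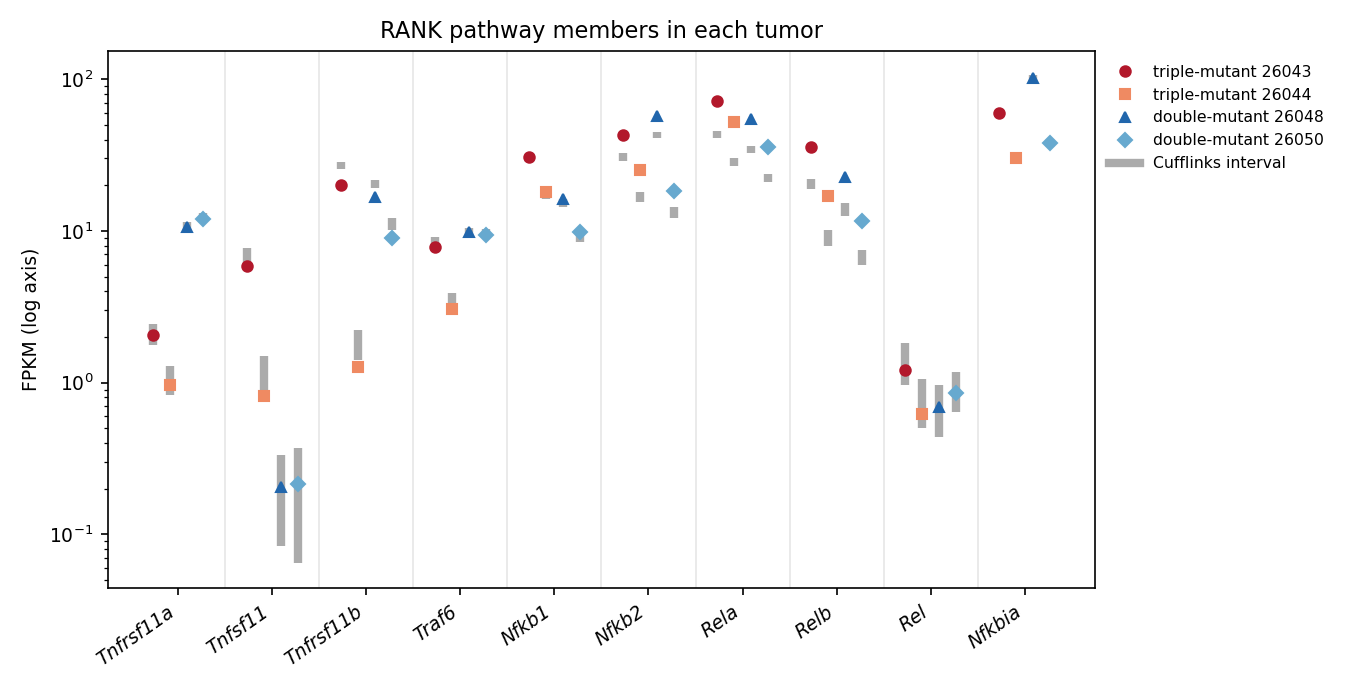
FPKM of the 10 members (log axis) in each of the 4 tumors, with Cufflinks' interval as a grey bar, which the FPKM of some genes does not meet. Tnfrsf11a is higher in both double-mutant tumors, at 10.6 and 11.9 FPKM, and Tnfsf11 is higher in both triple-mutant tumors, at 5.87 and 0.819 FPKM.

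The receptor itself was the member with the clearest difference between genotypes. Rank (Tnfrsf11a, ENSMUSG00000026321, chromosome 1 from 105780723 to 105847981, plus strand, mm10) had 2.07 FPKM in tumor 26043 and 0.962 FPKM in tumor 26044, both triple-mutant, against 10.6 FPKM in tumor 26048 and 11.9 FPKM in tumor 26050. The genotypes did not overlap, and the lower double-mutant value was 5.14-fold the higher triple-mutant value. The means were 1.52 ± 0.783 FPKM (SD, n = 2) and 11.3 ± 0.894 FPKM (SD, n = 2), a 7.44-fold lower mean in triple-mutant tumors. The log2 fold change was -2.32 with a standard error of 0.37, an unadjusted p of 0.0021 and an adjusted p of 0.225 from limma. It did not pass the threshold of 0.05, and 0 of all tested genes (0%) did, the smallest adjusted p being 0.0644. At an unadjusted p under 0.05 there were 1252 genes (9.82% of those tested), and Rank was the single member among them. A log2 fold change at or below that of Rank was found for 112 tested genes.

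The remaining Rank signal in triple-mutant tumors was not at the detection limit. The Cufflinks interval of Rank ran from 1.76 to 2.41 FPKM in tumor 26043 and from 0.822 to 1.29 FPKM in tumor 26044. Both intervals ended above 0 and well below those of the double-mutant tumors, which ran from 10.1 to 11.5 FPKM and from 11.7 to 13.2 FPKM. A gene FPKM sums over all exons, and the exons removed by the conditional allele are not given in the sources used here, so transcripts with and without the deleted part cannot be told apart. In bulk RNA, fewer cells that express a gene and less RNA per cell cannot be told apart either. By quantitative RT-PCR and RANK immunofluorescence, the study reports that Rank was effectively deleted in triple-mutant tumors. Epcam, an adhesion protein of epithelial cells, had 347 and 25.7 FPKM in the triple-mutant and 516 and 390 FPKM in the double-mutant tumors. Per 100 FPKM of Epcam, a scaling chosen after seeing the data, Rank was at 0.597 and 3.74 FPKM in triple-mutant and at 2.06 and 3.05 FPKM in double-mutant tumors. On this scale the genotypes overlapped (exact permutation test, two-sided, p = 1), because tumor 26044 lay above both double-mutant tumors and tumor 26043 below both. Epcam was 13.5-fold higher in tumor 26043 than in tumor 26044. Over the 10 luminal markers this fold ran from 5.88 (Krt8) to 19.3 (Ehf). Rank scaled to other markers was not computed, so the overlap is given for Epcam alone. Of the 10 macrophage markers 7 were also lower in both triple-mutant tumors, as were 22.9% of all tested genes. The part of myeloid cells in the Rank difference was not tested.

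The other conditional genes were lower in both triple-mutant tumors as well. Brca1 had 3.26 and 3.28 FPKM in triple-mutant and 3.84 and 5.69 FPKM in double-mutant tumors, and p53 (Trp53) had 15.7 and 87.8 FPKM against 150 and 103 FPKM. Both genes are targeted in both genotypes, and neither passed the limma threshold (adjusted p = 0.702 for Brca1 and 0.575 for Trp53). The genes listed next to Rank on chromosome 1, 2310035C23Rik and Zcchc2, had log2 fold changes of -0.45 and -1.20, neither past the threshold, and the genotypes overlapped for Zcchc2 but not for 2310035C23Rik. The 5 named genes whose centred log2(FPKM + 1) over the 4 tumors lay nearest to that of Rank were C1qtnf1, Cav2, Lcp1, Sec16b and Sema3d, at Euclidean distances of 0.297 to 0.388 log2 units. Of these Lcp1, which encodes the actin-bundling protein L-plastin of leukocytes, had 19.7 and 11.8 FPKM in triple-mutant and 65.0 and 65.5 FPKM in double-mutant tumors. Sec16b had 0.862 and 0.566 FPKM against 6.11 and 8.17 FPKM. Sec16b and Sema3d passed the filter only through the double-mutant tumors, so the filter fixed their order. With 4 tumors, many genes can share such a pattern.

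The ligand was ordered against the receptor, with more RANKL in the triple-mutant tumors. RANKL (Tnfsf11, ENSMUSG00000022015, chromosome 14 from 78277446 to 78308043, minus strand) had 5.87 FPKM in triple-mutant tumor 26043 and 0.819 FPKM in 26044, against 0.204 and 0.216 FPKM in the double-mutant tumors. The genotypes did not overlap, and the lower triple-mutant value was 3.79-fold the higher double-mutant value, while the triple-mutant tumors differed from each other by 7.17-fold. The Cufflinks intervals were disjoint in all 4 pairs of a triple-mutant with a double-mutant tumor. In the double-mutant tumors the interval ran over 5 to 20 and 4 to 23 steps, against 335 to 446 steps in tumor 26043 and 47 to 87 steps in tumor 26044. RANKL was thus low but not absent in the double-mutant tumors. The difference of mean log2(FPKM + 1) was 1.55, and it has no test because only tumor 26043 reached 1 FPKM. The difference was 0.59 without tumor 26043 and 2.51 without tumor 26044. The basal epithelial markers, at 1751 and 1315 against 70.4 and 47.6 FPKM in sum, had the same order of genotypes. Of these, 7 of 7 tested markers were higher in both triple-mutant tumors, as were 21.3% of all tested genes. The part of basal cells in the RANKL values was not tested.

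Osteoprotegerin (Tnfrsf11b, ENSMUSG00000063727, chromosome 15 from 54250619 to 54278484, minus strand) was the member with the widest spread within a genotype. It had 20.0 FPKM in tumor 26043 and 1.26 FPKM in tumor 26044, a 15.8-fold difference, and 16.7 and 8.91 FPKM in the double-mutant tumors. Tumor 26044 was below the other tumors and tumor 26043 above them, so the genotypes overlapped. The log2 fold change of -0.94 had a standard error of 1.14 (adjusted p = 0.798 from limma). Without tumor 26044 it was 0.67, so that this tumor set the direction. The summed luminal markers had the same order of tumors as osteoprotegerin, 26043 before 26048, 26050 and 26044. Marker by marker the order differed, with 6 of the 10 higher in both double-mutant tumors, 1 in both triple-mutant tumors and 3 overlapping. Of all tested genes, 22.9% were higher in both double-mutant and 21.3% in both triple-mutant tumors. The part of luminal cells in the osteoprotegerin values was not tested.

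The ratio of ligand to decoy separated the genotypes further than either gene. For each 100 FPKM of osteoprotegerin there were 29.4 and 64.8 FPKM of RANKL in triple-mutant tumors and 1.23 and 2.43 FPKM in double-mutant tumors. The lower triple-mutant ratio was 12.1-fold the higher double-mutant ratio. On the log2 scale the ratio was -1.20 ± 0.81 (SD, n = 2) in triple-mutant and -5.86 ± 0.70 (SD, n = 2) in double-mutant tumors, a difference of 4.66. The exact permutation test (two-sided) gave p = 0.333, and a design of this size cannot give a smaller one. The ratio is high in tumor 26043 with much ligand beside much decoy, and in tumor 26044 with less than 2 FPKM of each. It does not depend on scaling between tumors, and leaving out each tumor in turn gave differences of 4.09 to 5.23.

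Genes upstream of RANKL in the mammary gland were listed with those that respond to RANK there. Of the 17 genes 16 were tested, and 8 of them were higher in both triple-mutant tumors and 3 in both double-mutant tumors, where over all tested genes 21.3% and 22.9% were. Pgr and Esr1 passed the filter only through the triple-mutant tumors, so the filter fixed their order. Leaving out such genes, 6 of 14 list genes were higher in both triple-mutant and 3 in both double-mutant tumors, against 19.8% and 22.6% of the remaining tested genes. Without tumor 26044 but with Pgr and Esr1 still counted, 12 of the 16 were above and 3 below both double-mutant tumors. Of all tested genes 40.2% and 31.9% were. The median log2 fold change of the list, again with Pgr and Esr1, was 1.14 and that of all tested genes -0.02. For the list it was 0.49 with a filter of 5 FPKM, which neither gene passed. It was 0.69 without tumor 26043 and 1.88 without tumor 26044, with both genes counted. From limma, 0 list genes passed the threshold (lowest adjusted p = 0.167). The cell cycle gene Ccnd1 (cyclin D1) had 302 and 342 FPKM in triple-mutant and 34.0 and 17.0 FPKM in double-mutant tumors, and its log2 fold change was 3.68. Cited1, a transcriptional cofactor found in estrogen receptor-positive mammary cells, had 11.9 and 81.3 FPKM against 0.773 and 4.78 FPKM. On the double-mutant side stood Elf5, a transcription factor of alveolar progenitors, with 43.6 and 4.84 FPKM in triple-mutant and 66.0 and 103 FPKM in double-mutant tumors. Id2, an inhibitor of helix-loop-helix factors, had 65.9 and 12.2 FPKM against 76.2 and 106 FPKM. Elf5 and Id2 were both lowest in tumor 26044, the tumor with the lowest luminal markers. The part of luminal content in these values was not tested.

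Some hormone-related genes in this list were, like RANKL, highest in tumor 26043 with tumor 26044 next, and others were not. The genes of this paragraph were picked after their values were seen. The progesterone receptor Pgr had 4.45 and 1.06 FPKM in triple-mutant and 0.122 and 0.0217 FPKM in double-mutant tumors. Esr1, the estrogen receptor α gene, had 3.66 and 1.39 FPKM against 0.325 and 0.354 FPKM. For both receptors, tumor 26043 was highest, tumor 26044 came next, and the double-mutant tumors were under 0.4 FPKM. These are RNA levels, and by immunostaining the study detected neither receptor protein in tumors of either genotype. The sources used here do not say whether the sequenced tumors were among those stained. The pioneer factor Foxa1 had 40.9 and 8.44 FPKM against 3.62 and 0.341 FPKM. Wnt4, a progesterone-induced ligand, had 19.7 and 3.01 FPKM against 1.28 and 0.652 FPKM, and Areg (amphiregulin, an estrogen-induced growth factor) 30.1 and 7.86 FPKM against 2.12 and 2.07 FPKM. In these 5 genes, as in Tnfsf11, tumor 26043 was above tumor 26044 and both were above the double-mutant tumors. The prolactin receptor gene Prlr, with 34.6 and 5.90 FPKM against 6.05 and 8.21 FPKM, overlapped between genotypes. So did the luminal transcription factor gene Gata3, with 74.0 and 7.99 FPKM against 16.5 and 49.5 FPKM, and Cited1 was higher in tumor 26044 than in 26043. None of these genes passed the limma threshold. The summed basal markers also had tumor 26043 first, 26044 next and the double-mutant tumors far lower. Within the triple-mutant pair, however, only 3 of the 7 tested markers were higher in tumor 26043 than in 26044. The part of basal cells in the values of these hormone-related genes was not tested.

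**Figure D2:**
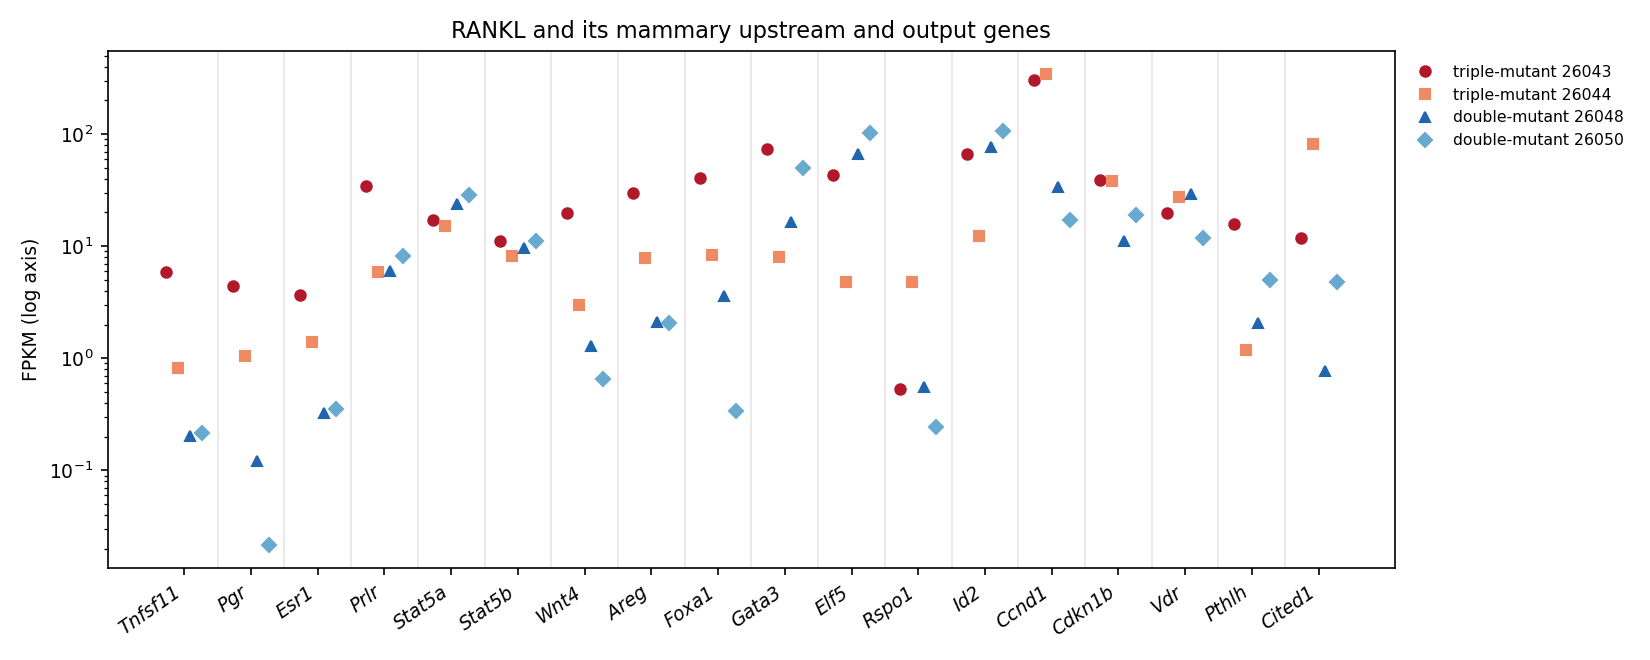
FPKM (log axis) of Tnfsf11 and all 17 genes of the list in each tumor. Pgr, Esr1, Foxa1, Wnt4 and Areg have, like Tnfsf11, tumor 26043 highest, tumor 26044 next and both double-mutant tumors lowest. Prlr, Gata3, Pthlh, Vdr, Stat5b and Rspo1 overlap between genotypes, and Elf5, Id2 and Stat5a are higher in both double-mutant tumors.

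Traf6 and the relay from RANK to NF-κB showed small differences. Traf6 (ENSMUSG00000027164, chromosome 2 from 101678440 to 101700974, plus strand) had 7.82 and 3.04 FPKM in triple-mutant and 9.77 and 9.35 FPKM in double-mutant tumors. The genotypes did not overlap, but the interval of tumor 26043 (7.81 to 9.10 FPKM) met that of tumor 26050 (9.07 to 10.4 FPKM). The log2 fold change was -0.82 with a standard error of 0.48 (adjusted p = 0.612 from limma), and leaving out tumor 26044 brought it to -0.26. The summed macrophage markers had the same order of tumors as Traf6. Marker by marker, Emr1, Itgam, Fcgr3 and C1qb had this order, and Cd68, Csf1r, Cd14, Lyz2, C1qa and Mrc1 did not. Among luminal markers, Krt8, Krt18, Epcam, Cldn7, Elf3 and Ehf had it, and Krt19, Cdh1, Cldn3 and Cldn4 did not. The part of either cell type in the Traf6 values was not tested. Of 25 further relay genes, all tested, 4 were higher in both triple-mutant and 5 in both double-mutant tumors, shares of 16% and 20% beside 21.3% and 22.9% of all tested genes, and the median log2 fold change was -0.0018. Without tumor 26044, 12 (48%) were above and 5 (20%) below both double-mutant tumors, beside 40.2% and 31.9% of all tested genes. The kinase Src, which is recruited to RANK through TRAF6, had 61.7 and 101 FPKM against 36.1 and 38.0 FPKM. Traf5 had 2.77 and 13.1 FPKM against 2.32 and 2.35 FPKM. Lower in triple-mutant tumors were Chuk (IKKα), with 10.1 and 7.60 FPKM against 12.9 and 15.7 FPKM, and Lgr4, a further receptor for RANKL, with 24.6 and 16.2 FPKM against 26.8 and 51.6 FPKM. None of the 25 passed the threshold, the lowest adjusted p from limma being 0.480, that of Src (unadjusted p = 0.0292).

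The NF-κB subunits were expressed at very different levels. Rela (ENSMUSG00000024927, chromosome 19 from 5637490 to 5648130, plus strand), the activating subunit of the canonical branch, had 72.3 and 52.2 FPKM in triple-mutant and 54.4 and 35.5 FPKM in double-mutant tumors. Rel (ENSMUSG00000020275, chromosome 11 from 23741729 to 23770970, minus strand), the subunit c-REL typical of lymphoid cells, had 1.20, 0.616, 0.688 and 0.855 FPKM in tumors 26043, 26044, 26048 and 26050. Rel was thus the lowest NF-κB gene in every tumor, and its intervals met in 3 of the 4 pairs of tumors between genotypes. Rela had a log2 fold change of 0.47 with a standard error of 0.35 (adjusted p = 0.680 from limma), and its genotypes overlapped because triple-mutant tumor 26044 lay just below double-mutant tumor 26048.

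Nfkb1, which encodes the p105 precursor of p50, was the NF-κB gene whose genotypes did not overlap. Nfkb1 (ENSMUSG00000028163, chromosome 3 from 135584655 to 135691547, minus strand) had 30.6 and 18.0 FPKM in triple-mutant and 16.3 and 9.86 FPKM in double-mutant tumors. The separation was narrow, since the lower triple-mutant value was 1.11-fold the higher double-mutant value and their Cufflinks intervals met. The means were 24.3 ± 8.90 FPKM and 13.1 ± 4.53 FPKM (SD, n = 2 each), with a log2 fold change of 0.84 and a standard error of 0.43 (adjusted p = 0.577 from limma). It stayed between 0.47 and 1.21 as each tumor was left out.

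The non-canonical pair Nfkb2 and Relb overlapped between genotypes. Nfkb2 (ENSMUSG00000025225, chromosome 19 from 46304737 to 46312090, plus strand) had 42.8 and 25.1 FPKM for the triple-mutant genotype and 57.3 and 18.2 FPKM in double-mutant tumors. The double-mutant tumors held both the highest and the lowest value, 3.15-fold apart, and the log2 fold change was 0.02 with a standard error of 0.64 (adjusted p = 0.996 from limma), with a sign that changed with the scaling. Relb (ENSMUSG00000002983, chromosome 7 from 19606222 to 19629438, minus strand) had 36.0 and 16.9 FPKM against 22.6 and 11.6 FPKM. Its genotypes overlapped as well, with a log2 fold change of 0.57 and a standard error of 0.53 (adjusted p = 0.734 from limma). The ratio of Nfkb2 to Nfkb1 was 1.40 and 1.39 in the triple-mutant and 3.52 and 1.84 in the double-mutant tumors, nearly equal in the former and higher in the latter. The exact permutation test (two-sided) of its log2 gave p = 0.333, again the lower limit of the design. The ratio of Relb to Rela was 0.497 and 0.323 against 0.416 and 0.328, which overlapped.

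Nfkbia, the inhibitor that NF-κB itself induces, had its extremes in both genotypes. Nfkbia (ENSMUSG00000021025, chromosome 12 from 55489409 to 55492647, minus strand) had 59.6 and 30.1 FPKM in triple-mutant and 102 and 37.9 FPKM in double-mutant tumors. Tumor 26048 was highest and tumor 26044 lowest. The log2 fold change was -0.54 with a standard error of 0.61 (adjusted p = 0.784 from limma), and it became 0.16 without tumor 26048. The summed T and NK cell markers, 49.1, 24.2, 56.4 and 33.9 FPKM in tumors 26043, 26044, 26048 and 26050, had the same order of tumors. Of these 10 markers 5 were at or under 0.1 FPKM in tumor 26044 and 3 in tumor 26050, and Thy1 made up most of the sum. Marker by marker, Thy1 and Cd2 had this order, and the other T and NK cell markers did not. The part of T and NK cells in the Nfkbia values was not tested.

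Nfkbia and Nfkb2 are textbook targets of NF-κB, so the promoters of the members were searched for the κB consensus, the 10-base motif bound by NF-κB dimers, on both strands, with overlapping matches merged into 1 site. RefSeq windows of 300 bases (GRCm38.p6, 250 before and 50 after the start of a transcript) were found for 7 members, and Nfkb1, Relb and Tnfrsf11b had no entry. The motif was present in 5 of 9 windows, those of Nfkbia, Rel and all 3 starts of Nfkb2, and in 4.51% of all 32851 windows. By gene it was present in 3 of 7 members. The later windows of Nfkb2 overlap and share the site GGGACTTTCC, which is counted in each. It was not among the letters of the windows of Tnfrsf11a, Tnfsf11, Traf6 and Rela. The sequences below are the 250 bases before the start of Nfkbia (chr12:55492648-55492897, minus strand), of the first start of Nfkb2 (chr19:46304487-46304736, plus strand) and of Rel (chr11:23770970-23771219, minus strand), shown because they are the windows of members with the motif. They are written 5′ to 3′ along the gene, with the matches in capitals.
Nfkbia: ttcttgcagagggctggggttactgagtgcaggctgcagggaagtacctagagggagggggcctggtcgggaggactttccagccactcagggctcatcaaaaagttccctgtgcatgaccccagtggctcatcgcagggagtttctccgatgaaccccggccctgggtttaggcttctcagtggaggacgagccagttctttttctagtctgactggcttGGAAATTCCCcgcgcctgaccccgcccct
Nfkb2: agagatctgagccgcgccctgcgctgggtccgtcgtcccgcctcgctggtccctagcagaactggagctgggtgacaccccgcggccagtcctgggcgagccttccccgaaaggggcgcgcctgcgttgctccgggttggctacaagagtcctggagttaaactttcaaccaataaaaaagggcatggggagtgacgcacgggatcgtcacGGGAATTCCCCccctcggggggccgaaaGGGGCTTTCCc
Rel: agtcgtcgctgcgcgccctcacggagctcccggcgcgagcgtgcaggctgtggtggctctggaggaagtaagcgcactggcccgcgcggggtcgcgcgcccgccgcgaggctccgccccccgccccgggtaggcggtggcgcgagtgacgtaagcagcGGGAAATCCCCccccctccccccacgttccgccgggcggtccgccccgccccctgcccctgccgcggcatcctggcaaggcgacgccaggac

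The site of Nfkbia lay 29 to 20 bases before the start. The shown window of Nfkb2 held 2 sites, 39 to 29 and 11 to 2 bases before the start, and that of Rel held 1 site, 92 to 82 bases before the start. A match of letters is not evidence of binding. Among these genes the FPKM order of the tumors was not shared, since Nfkbia and Nfkb2 were highest in tumor 26048 with tumor 26043 next, while Rel, close to its measurement error, was highest in tumor 26043.

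Some further genes of the pathway had, like Nfkbia, their highest values in tumors 26048 and 26043. The genes of this paragraph were picked after their values were seen. Nfkbie, which encodes the inhibitor IκBε, had 7.69 and 4.39 FPKM in triple-mutant and 16.0 and 2.99 FPKM in double-mutant tumors. Map3k14, the kinase NIK, had 6.37 and 2.37 FPKM against 14.8 and 3.45 FPKM. Both were highest in tumor 26048, with tumor 26043 next, as were Nfkbia and Nfkb2. Birc3, an NF-κB-induced ubiquitin ligase, had 12.5 and 3.54 FPKM against 12.2 and 5.63 FPKM, high in the same pair of tumors. Other genes of the same lists were ordered differently, since Tnfaip3 was higher in tumor 26044 than in 26043, and Nfkbib, Chuk and Tab3 were highest in tumor 26050. Of the 13 tested genes that restrain NF-κB, 11 were higher in tumor 26043 than in 26044 and 9 higher in tumor 26048 than in 26050. Over all tested genes 61.3% and 54.1% were.

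**Figure D3:**
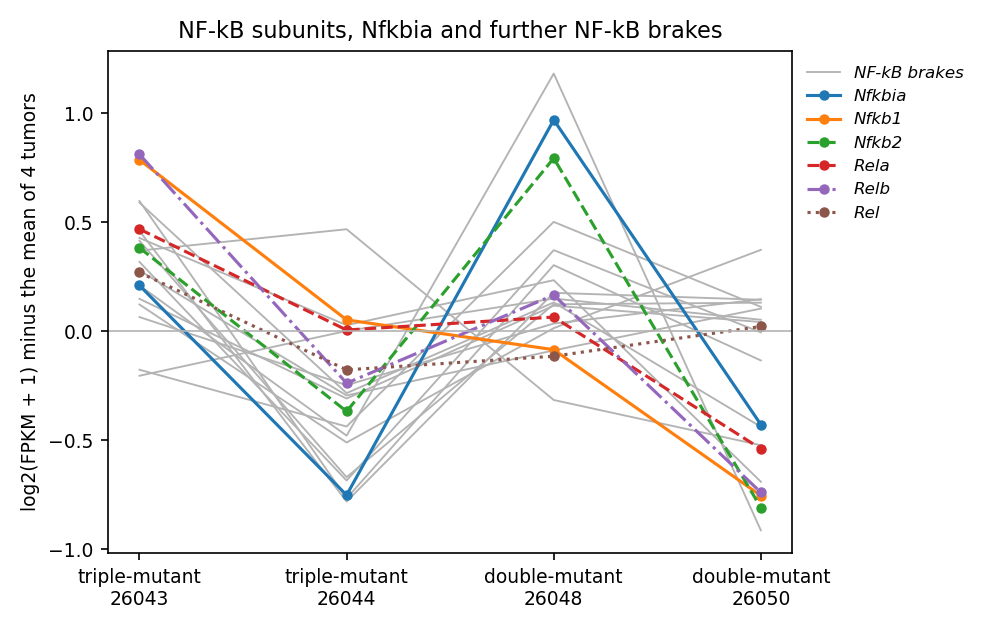
log2(FPKM + 1) of Nfkbia and the 5 NF-κB subunits (colored) and of 14 further genes that restrain NF-κB (grey) in each tumor, minus the gene's mean over the 4 tumors. The 6 members are higher in tumor 26043 than in 26044, and Nfkbia and Nfkb2 peak in tumor 26048, while the grey lines include Tnfaip3 and Commd1, which are higher in 26044 than in 26043.

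Over all members, the difference between the triple-mutant tumors had 1 direction. All 10 members were higher in tumor 26043 than in tumor 26044, where 61.3% of all tested genes were, and 7 were higher in tumor 26048 than in tumor 26050, where 54.1% were. Between genotypes, 2 members (Tnfsf11 and Nfkb1) were higher in both triple-mutant and 2 (Tnfrsf11a and Traf6) in both double-mutant tumors, and 6 overlapped. Over all tested genes 44.3% did not overlap in either direction, against 4 of 10 members, a share close to the background. The distance between the triple-mutant tumors exceeded the distance of the genotype means for 7 of the 10 members on the log2(FPKM + 1) scale, and for 55.9% of tested genes. Cufflinks' intervals were disjoint in 35 of the 40 member pairs of tumors between genotypes, and also for 9 of 10 members within the triple-mutant and 7 of 10 within the double-mutant pair. The shares over all tested genes were not computed. For most members the intervals thus did not meet even within a genotype, and 17 of the 40 member values lay outside their own interval.

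**Figure D4:**
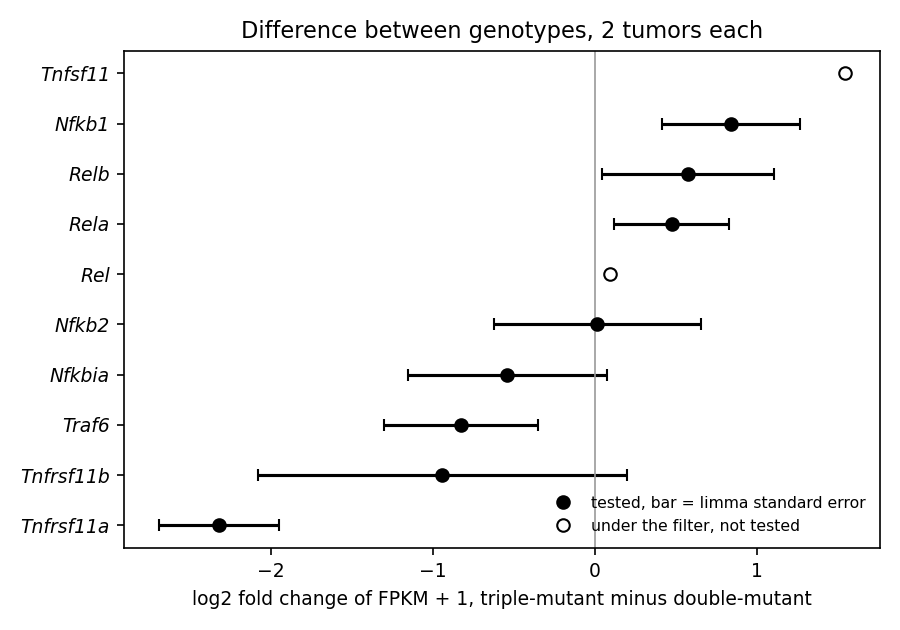
log2 fold change of FPKM + 1, triple-mutant minus double-mutant, with limma's standard error for the 8 tested members (filled) and no error for the 2 under the filter (open). Tnfrsf11a, at -2.32, with a standard error of 0.37, lies farthest from 0.

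The lists of NF-κB inhibitors and targets were read against all tested genes, of which 21.3% were higher in both triple-mutant and 22.9% in both double-mutant tumors. Of 14 genes that restrain NF-κB 13 were tested, 1 was higher in both triple-mutant tumors and 1 in both double-mutant tumors, and the median log2 fold change was -0.18. Without tumor 26044, 8 were above and 1 below both double-mutant tumors, where 40.2% and 31.9% of all tested genes were. The gene higher in the triple-mutant tumors was Tnfaip3 (the deubiquitinase A20), with 6.15 and 6.66 FPKM in triple-mutant and 3.45 and 2.85 FPKM in double-mutant tumors, and its log2 fold change was 0.84 (adjusted p = 0.508 from limma). The gene higher in the double-mutant tumors was Commd1, with 41.1 and 47.6 FPKM against 52.9 and 49.4 FPKM. Of 38 NF-κB target genes 30 were tested, 3 were higher in both triple-mutant and 5 in both double-mutant tumors, with a median log2 fold change of -0.20, and without tumor 26044 the counts were 13 and 9. Ccl20 passed the filter only through the double-mutant tumors, and without it 3 and 4 of 29 did not overlap. The chemokine gene Ccl20 had 0.817 and 0.284 FPKM in triple-mutant and 3.70 and 7.51 FPKM in double-mutant tumors, and its log2 fold change was -2.05 (adjusted p = 0.359 from limma). The urokinase receptor gene Plaur had 6.91 and 8.36 FPKM against 17.1 and 37.8 FPKM. Bcl2l1, which encodes the survival protein BCL-XL, had 46.1 and 27.8 FPKM against 27.2 and 16.6 FPKM. None of these genes passed the threshold.

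Genes of the osteoclast program that RANK drives in bone mostly overlapped between genotypes or were under the filter. Of 15 genes 9 were tested, and 0 were higher in both triple-mutant and 2 (22.2%) in both double-mutant tumors, beside 21.3% and 22.9% of all tested genes, with a median log2 fold change of -0.51. Without tumor 26044, 1 was above and 4 below both double-mutant tumors, beside 40.2% and 31.9%. The integrin subunit gene Itgb3 had 9.41 and 4.13 FPKM against 16.3 and 13.8 FPKM, and Trem2, a receptor of macrophages, 7.75 and 6.30 FPKM against 23.7 and 13.6 FPKM. Other genes of the list, named after their values were seen, ranged widely. Acp5 (tartrate-resistant acid phosphatase) had 75.3 and 24.1 FPKM against 47.7 and 41.6 FPKM, and Ctsk (cathepsin K) 7.37 and 2.70 FPKM against 11.7 and 7.33 FPKM. Mitf and Ocstamp, both under the filter, were higher in both triple-mutant tumors, and Calcr, the calcitonin receptor gene, was at most 0.0341 FPKM in any tumor. Of the macrophage markers, 7 of 10 were higher in both double-mutant tumors, with a median log2 fold change of -0.89. Whether myeloid cells account for the values of Itgb3 and Trem2 was not tested.

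Among 17 ligands and receptors related to RANKL and RANK, 14 were tested, 4 were higher in both triple-mutant and 3 in both double-mutant tumors, beside 21.3% and 22.9% of all tested genes, and the median log2 fold change was 0.11. Ngfr passed the filter only through the triple-mutant tumors, and without it the counts were 3 and 3 of 13. Without tumor 26044 the counts were 9 and 3 of 14, beside 40.2% and 31.9%. The TNF receptor genes differed in opposite directions, and neither passed the threshold. Tnfrsf1b had 5.87 and 3.39 FPKM in triple-mutant and 14.4 and 13.8 FPKM in double-mutant tumors, and its log2 fold change was -1.46 (adjusted p = 0.409 from limma). Tnfrsf1a had 106 and 102 FPKM against 76.3 and 73.0 FPKM. Tnf itself had 2.02 and 0.329 FPKM against 2.34 and 2.13 FPKM, and Ngfr, a basal epithelial and neural receptor, 1.04 and 14.2 FPKM against 0.929 and 0.112 FPKM.

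How the members ranked against each other depended on which deposited value was read. By FPKM, Rela was the highest member in both triple-mutant tumors and Nfkbia in both double-mutant tumors. By the midpoint of Cufflinks' interval, Nfkbia was highest in all 4 tumors. Of the 40 member values 17 lay outside their own interval, as did 43.6% to 51.1% of tested genes per tumor. The FPKM of Rela, Relb and Nfkb2 was above the interval in every tumor, at 1.58 to 1.83 and 1.63 to 1.88 times its midpoint for Rela and Relb and at least 1.33 times for Nfkb2. That of Tnfrsf11b was below the interval in every tumor, at 0.697 to 0.816 times the midpoint, and that of Traf6 was below it in tumor 26044. The longest coding transcripts (GENCODE M21) of Relb, Nfkb2 and Rela had the highest GC contents of the members, 61.1%, 59.4% and 59.4%, and that of Tnfrsf11b had 42.9%. Rel, with 42.5%, and Tnfsf11, with 44.9%, lay inside their intervals in all 4 tumors. These intervals were wide, with half-widths of 29.2% to 37.5% of the midpoint for Rel and 14.2% to 70.4% for Tnfsf11. Those of Tnfrsf11b were 5.48% to 22.1%. The part of base composition in the gap between FPKM and interval was not tested. Tumor 26044 stood apart, with the highest of the 4 ratios for Rela, Relb and Nfkb2 and the lowest for Tnfsf11 (0.714), Rel (0.793) and Tnfrsf11b. With midpoints in place of FPKM the log2 fold change of Rank was again -2.32, and the difference of Tnfsf11 was 1.75.

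**Figure D5:**
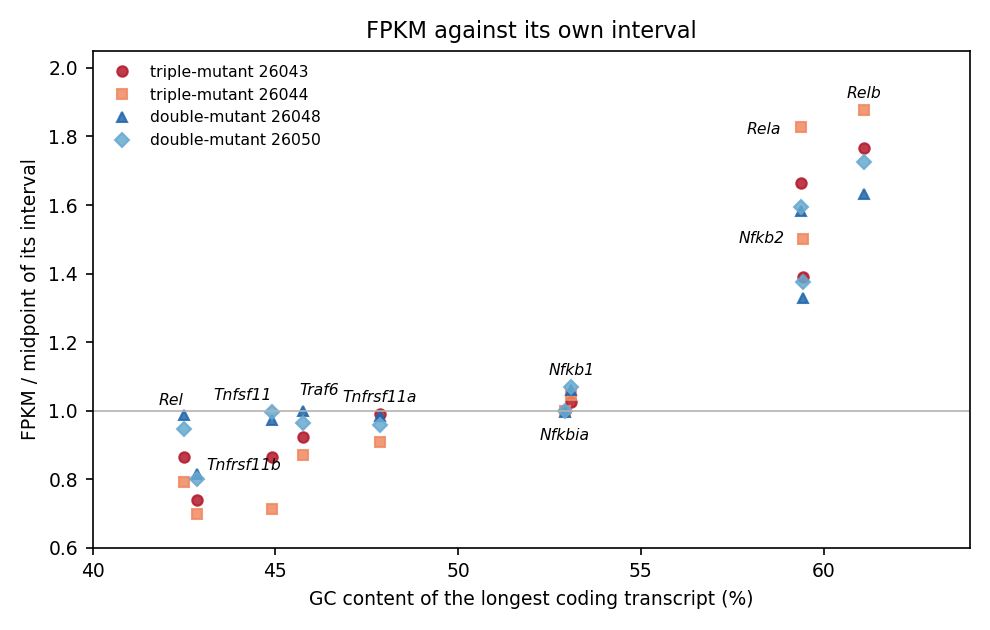
FPKM divided by the midpoint of its own Cufflinks interval against the GC content of the longest coding transcript (%), for the 10 members in the 4 tumors. Rela, Relb and Nfkb2 lie above 1.3 in every tumor, and Tnfrsf11b lies below 0.82.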

How the data were processed

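PolyA RNA of the tumors was sequenced as 50-bp single-end reads. Per the labels and the methods, the authors aligned reads with TopHat2 2.0.10 and Bowtie 0.12.9 to mm10 and estimated FPKM with Cufflinks 2.1.1, and the deposited tables hold FPKM with interval bounds in FPKM, 1 table per tumor. Which Cufflinks options were set is not given in the sources used here. The authors' read counts were not used here.

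Tables were joined on symbol and position (23746 rows), with 1 added to starts. Genotypes were compared on log2(FPKM + 1) by limma (version 3.58.1, with a mean-variance trend, under R version 4.3.3) at a threshold of 0.05. Interval bounds of 8 members were whole multiples of 1 step per gene, within 0.00596 of a step. Nfkb2 and Nfkbia had no common step. Single values were tested by exact permutation. In each list, the 2 genes of largest change in each direction without overlap were named, and for Rank the 5 nearest genes. Members and lists were chosen with earlier results of these data known, and named genes outside the rule are marked. Gene models came from GENCODE M21 and promoters from RefSeq (GRCm38.p6). Other steps ran in Python 3.11.15 with numpy 2.4.6 and pandas 2.3.3, and plots were drawn by matplotlib 3.10.9. The alternatives were another pseudocount, filters, scalings, variance model, interval midpoints, row status, no small RNA genes and each tumor left out.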

Additional observations from a re-analysis of the deposited data

How the results depend on the processing

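No paired analysis was possible because the labels give the tumors no shared replicate numbers and the sources used here do not say which tumors come from the same litter. The count of genes past the limma threshold was 0, and it was 6 with quantile normalization, 5 without the trend and 1 with interval midpoints, and 0 with each tumor left out. The cause was not tested. The log2 fold change of Nfkb2 changed sign to -0.014 after rescaling to TPM, -0.0049 with quantile normalization and -0.077 with interval midpoints. The difference of Tnfsf11 was 2.92 with a pseudocount of 0.1 FPKM, by construction of a smaller pseudocount. With each tumor left out in turn, log2 fold changes ran from -2.64 to -1.998 for Tnfrsf11a, -2.55 to 0.67 for Tnfrsf11b, -1.39 to -0.26 for Traf6, -0.79 to 0.82 for Nfkb2 and -1.24 to 0.16 for Nfkbia. They ran from 0.17 to 0.78 for Rela, 0.048 to 1.10 for Relb, 0.59 to 2.51 for Tnfsf11 and -0.13 to 0.32 for Rel. The adjusted p of Tnfrsf11a lay between 0.193 and 0.483 over the other limma alternatives and between 0.121 and 0.992 with a tumor left out, where the lone tumor of a genotype is assumed to vary like the other pair. Relative to Epcam its log2 difference was -0.75. With a tumor left out, list medians took both signs for the relay (-0.25 to 0.18), the brakes (-0.39 to 0.27), the targets (-0.55 to 0.13) and the relatives (-0.29 to 0.42). They kept 1 sign for the osteoclast program (-0.86 to -0.31) and the genes upstream of RANKL (0.69 to 1.88, with Pgr and Esr1 counted). Absolute depth is unknown, so no counting interval could be given beyond that of Cufflinks.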
